A study of Mus musculus with 4 samples.

Results

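The genes described here are Dtx3l and 5 members of the PARP family that are known as interferon-induced genes in many cell types, Parp9, Parp10, Parp11, Parp12 and Parp14, together with Parp1 and Parp2, which serve as the contrast not tied to interferon. They were chosen by symbol, and 7 of the 8 have an entry of their own among the 28168 loci of the deposited table. Parp10 is listed only in an entry joined with its neighbour Plec. Parp9 and Parp2 have more than 1 entry each, which makes 9 own entries in all. RNA was sequenced from mature olfactory sensory neurons, the odour-detecting neurons of the nasal epithelium, which were sorted from dissociated olfactory epithelium of mice. The mice behind the 2 Nd1 libraries carried Nd1+/-, OMP-IRES-tTA+/- and OMP-IRES-GFP+/-. Nd1 names the transgenic line, which the series title says expresses double-stranded RNA from the genome, tTA is a transcriptional activator, and both insertions at OMP are driven by the gene of the olfactory marker protein, a gene of mature olfactory neurons. The 2 control libraries differ from each other. The control of replicate 1 carried Nd1+/- with OMP-IRES-tTA-/-, and the control of replicate 2 carried Nd1-/- with OMP-IRES-tTA+/-, both with OMP-IRES-GFP+/-. In each group the mice of replicate 1 were aged 212 days and those of replicate 2 were aged 87 days, and the labels do not give the number of mice per library.

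PARP enzymes take ADP-ribose from NAD+ and attach it to proteins or nucleic acids. Parp1 and Parp2 bind broken DNA and build long ADP-ribose chains that draw repair factors to the break. The other PARP members described here add single ADP-ribose units or have little activity alone, and several of them restrict viruses. Dtx3l is a ubiquitin ligase of the Deltex family that forms a complex with Parp9, and interferon raises both genes in many cells.

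Dtx3l, Parp12, Parp11 and Parp1 are shown by the RefSeq sequence before their start sites, on GRCm38.p6, a different build from the mm9 coordinates of the deposited table. Dtx3l and Parp12 rose in Nd1 and Parp11 and Parp1 did not pass the test, so the set lets the letters be read beside the values that follow. Of the 8 members, 5 have an entry among the RefSeq promoter windows, which run from 250 bases before to 50 bases after a start. Parp9, Parp10 and Parp14 have none. Bases inside exons annotated by GENCODE M21 are left out. Each sequence runs 5′ to 3′ on the strand of the gene, and capitals mark matches on either strand to the cores searched. These are GAAA repeated after any 2 bases (read as TTTC repeated on the other strand), the core of the interferon-stimulated response element, TTCNNNGAA, the core of the gamma-activated site, and CCGCCC, the GC box.
Dtx3l (chr16:35939152-35939277, minus strand, 126 bases): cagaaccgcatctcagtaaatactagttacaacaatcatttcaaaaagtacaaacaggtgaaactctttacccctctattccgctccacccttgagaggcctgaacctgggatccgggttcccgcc
Parp12 (chr6:39118350-39118472, minus strand, 123 bases): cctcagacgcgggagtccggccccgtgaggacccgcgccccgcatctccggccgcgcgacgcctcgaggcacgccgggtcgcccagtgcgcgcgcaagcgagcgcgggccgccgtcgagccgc
Parp11 (chr6:127446590-127446839, plus strand, 250 bases): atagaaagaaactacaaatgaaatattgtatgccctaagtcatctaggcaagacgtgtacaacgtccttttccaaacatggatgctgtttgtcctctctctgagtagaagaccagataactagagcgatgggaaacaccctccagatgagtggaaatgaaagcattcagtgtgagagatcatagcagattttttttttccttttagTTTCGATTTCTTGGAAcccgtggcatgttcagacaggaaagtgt
Parp1 (chr1:180568641-180568890, plus strand, 250 bases): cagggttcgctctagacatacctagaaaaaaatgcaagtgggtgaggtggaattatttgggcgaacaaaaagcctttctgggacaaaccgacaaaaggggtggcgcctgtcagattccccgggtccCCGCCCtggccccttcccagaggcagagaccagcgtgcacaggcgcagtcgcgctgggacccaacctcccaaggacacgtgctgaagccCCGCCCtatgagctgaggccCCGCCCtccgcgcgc

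The upstream window of Parp11 held an interferon response core, TTTCGATTTC, at position -44 from the start and a gamma-activated core, TTCTTGGAA, at position -37, and the matches overlap. The other window of Parp11, at an alternative start, held neither and had a single GC box. No window of Dtx3l, Parp12, Parp1 or Parp2 held either interferon core. Parp1 had 4 GC boxes in its window, and the capitals mark those before the start. Over all 32851 RefSeq windows of this length, 3.44% held the interferon response core, 8.30% the gamma-activated core and 35.7% the GC box. The match is thus in the gene whose level was nearly the same in both groups, as given further on, and these letters do not show whether any factor binds there.

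The deposited table gives 1 FPKM value per group, so the spread between the 2 replicates cannot be shown. FPKM corrects fragment counts for transcript length and for sequencing depth, so levels can be set side by side between genes. Fold changes and q-values are the authors', from Cuffdiff, and a gene is said to rise or fall at q under 0.05. Each 95% interval was computed from the listed log2 fold change and test statistic, taking the statistic as the change over its standard error. Such an interval holds whatever error Cuffdiff assigned and is not a spread measured between mice. Of the 5 interferon-linked members with an own entry, 4 rose in Nd1 and the fifth, Parp11, did not pass. Over all 14841 tested loci 34.4% were called, 15.1% as higher and 19.2% as lower. The rise was at least 2-fold in 3 of the 5, beside 7.09% of all tested loci. The median log2 fold change of the 5 was 1.13, beside -0.068 over the 14704 tested loci above 0 in both groups. These counts, this median and the sum that follows take Parp9 by its entry of higher mean. That entry is the lower of the Parp9 entries in control and the higher in Nd1, so the choice leans towards a rise. The median is its own value, and the other Parp9 entry, at 0.52, was neither called nor at least 2-fold. Summed over the 5, the level went from 51.7 to 101.2 FPKM, while the sum of Parp1 and Parp2 went from 33.1 to 30.3 FPKM.

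**Figure D1:**
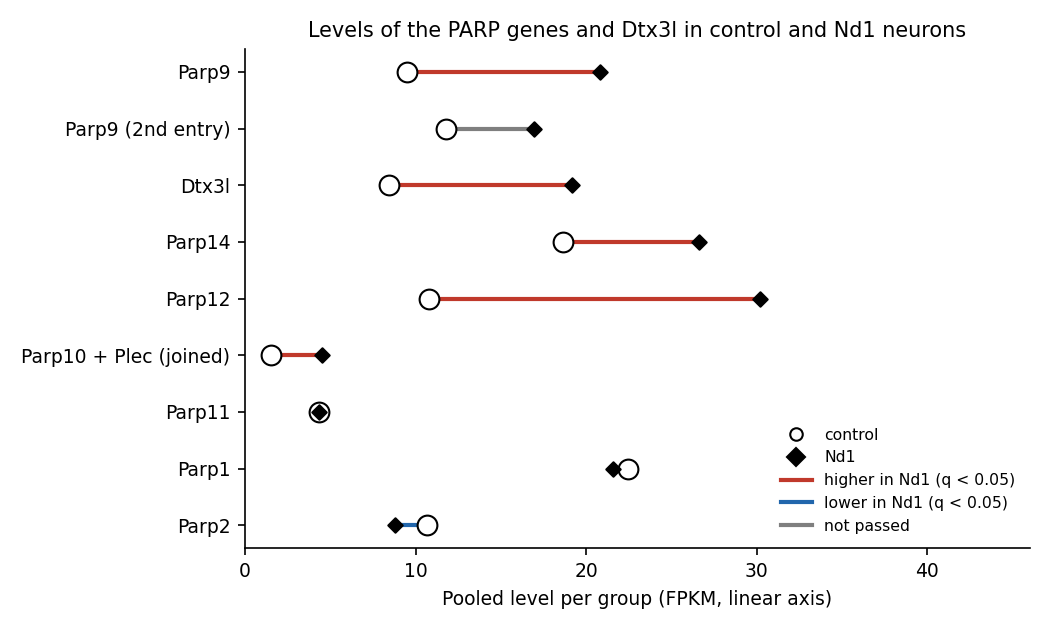
Pooled level (FPKM, linear axis) of each tested member entry in control (open circles) and Nd1 (diamonds), 1 value per group, with the connecting line coloured by the authors' call. Parp9, Dtx3l, Parp14, Parp12 and the joined entry of Parp10 and Plec lie to the right in Nd1, the Parp11 symbols coincide, and Parp2 lies to the left.

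By the first Parp9 entry, Parp9 and Dtx3l, whose proteins work as a pair, rose to nearly the same degree from nearly the same level. The first entry of Parp9 stood at 9.52 FPKM in control and 20.8 FPKM in Nd1 in the authors' deposited table, a 2.19-fold rise (95% interval 1.79 to 2.67, q = 5.03e-13). Dtx3l stood at 8.44 FPKM in control and 19.2 FPKM in Nd1, a 2.27-fold rise (1.87 to 2.76, q = 4.11e-15). The ratio of Dtx3l to this Parp9 entry was 0.886 in control and 0.922 in Nd1. Both entries carry the same listed bounds on mm9, chromosome 16 from 35926601 to 35983316, and in GENCODE M21 the genes stand head to head on opposite strands and overlap by 682 bases at their starts. The labels do not say that strand was kept in counting, so reads from the overlap cannot be assigned to either gene with certainty.

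The second Parp9 entry, at the same bounds, did not pass. It was listed at 11.8 FPKM in control and 16.9 FPKM in Nd1, a ratio of 1.44 with an interval from 0.977 to 2.11 (q = 0.151 in the authors' deposited table). The entry numbers tell the 2 apart. Of the 10 named entries of known strand with the nearest numbers on the chromosome, 10 lie on the plus strand in GENCODE for the first entry, which is the strand of Parp9, and 10 lie on the minus strand for the second. The table states no strand, so which transcripts the second entry collects was not tested.

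Parp14, a large mono-ADP-ribosyltransferase with macrodomains that bind ADP-ribose, lies 55.1 kb from the shared Dtx3l and Parp9 locus (mm9 chromosome 16, 35832964 to 35871468). Its level was 18.6 FPKM in control and 26.6 FPKM in Nd1 in the authors' deposited table. This is a 1.43-fold rise, with an interval from 1.33 to 1.54 (q listed as 0) and the smallest standard error of the members on the log2 scale. Its interval does not reach those of Dtx3l or of the first Parp9 entry. The second Parp9 entry had nearly the same ratio as Parp14 and did not pass, with a standard error of 0.28 on the log2 scale beside 0.054 for Parp14.

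Within 100 kb of these genes on chromosome 16, 3 of the 4 member entries rose and none of the other 5 tested entries was called by Cuffdiff, where 34.4% of all tested loci were called, 15.1% as higher. With so few entries, these counts do not set the members apart from their neighbours. At an unadjusted p under 0.05 there was 1, Dirc2, which stood lower in Nd1 (q = 0.120 in the authors' deposited table). Kpna1, an importin that carries proteins into the nucleus and whose entry begins 0.133 kb from the shared locus, stood at 28.3 and 24.97 FPKM (q = 0.311). Dirc2, Wdr5b, Fam162a and Ccdc58 had log2 fold changes from -0.27 to 0.022. The test failed for Hspbap1, at 4.51 FPKM in control and 4.39 FPKM in Nd1.

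**Figure D2:**
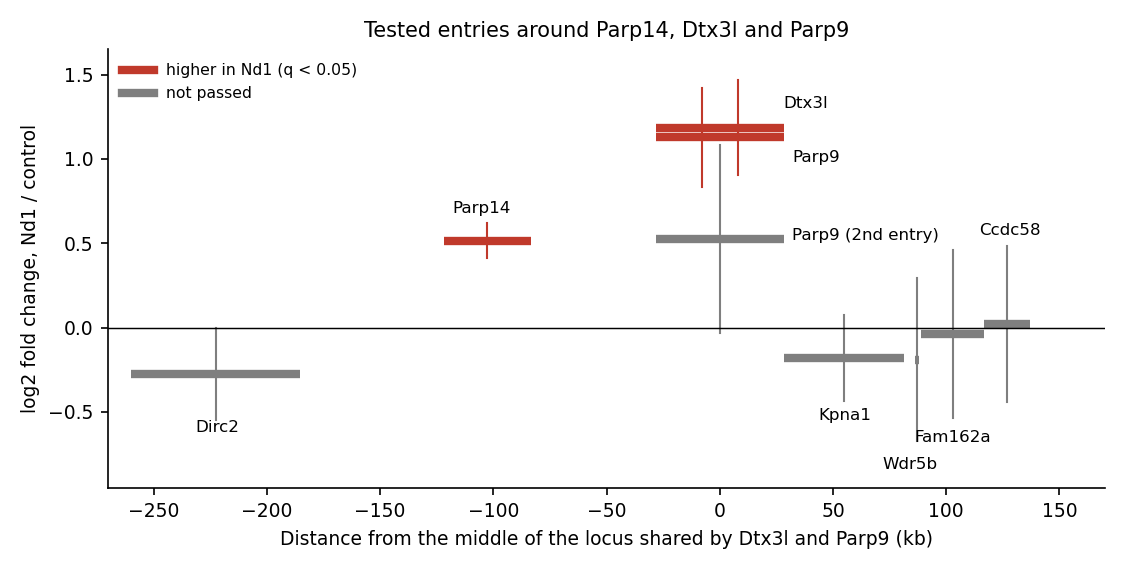
Log2 fold change of Nd1 over control (vertical axis) of each tested entry against its distance in kb from the middle of the locus shared by Dtx3l and Parp9; thick bars span the listed locus and thin lines the 95% interval, with those of Dtx3l and the first Parp9 entry moved apart sideways. The called entries (red) are Parp14, Dtx3l and the first Parp9 entry, and Kpna1 beside them lies at -0.18.

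Parp12, a zinc-finger mono-ADP-ribosyltransferase that acts against several RNA viruses, showed the largest rise among own entries. It stood at 10.8 FPKM in control and 30.2 FPKM in Nd1 in the authors' deposited table, a 2.81-fold rise (2.28 to 3.46, q listed as 0). The entry covers mm9 chromosome 6 from 39036411 to 39068348. The transcript 4930599N23Rik, an antisense gene in GENCODE M21, starts 123 bases from Parp12 on the opposite strand, and the sequence of Parp12 printed above is that stretch between them. It rose as well, from 1.58 to 7.81 FPKM (log2 fold change 2.31, q = 1.77e-09). Jhdm1d, a histone demethylase whose entry shares the bounds of 4930599N23Rik, did not pass (6.68 and 5.97 FPKM, q = 0.382), and the tests of the Hipk2 and Tbxas1 entries on the other side failed.

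Parp10, a mono-ADP-ribosyltransferase that interferon raises in other cells, could not be read by itself. The joined entry of Parp10 and Plec (mm9 chromosome 15, 76001404 to 76073870) stood at 1.53 FPKM in control and rose to 4.48 FPKM, a 2.93-fold change (2.08 to 4.13, q = 1.01e-08 in the authors' deposited table). Plec encodes plectin, a cytoskeletal linker, and the genes overlap by 1401 bases in GENCODE M21. How much of the rise belongs to either gene cannot be told apart in this table, and the entry is left out of the counts. Of the other 7 tested named entries within 100 kb, 0 passed in Cuffdiff, beside 34.4% of all tested loci, and 1 had an unadjusted p under 0.05, Oplah (2.16 and 1.44 FPKM, q = 0.0687).

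Parp11, a mono-ADP-ribosyltransferase of the nuclear envelope, did not follow the other interferon-linked members. The table lists 4.34 FPKM in control and 4.34 FPKM in Nd1, a ratio of 0.9995 (mm9 chromosome 6, 127396858 to 127444257, q = 0.999). The interval of the ratio runs from 0.757 to 1.32. Changes within these bounds cannot be seen here, and the 1.43-fold change of Parp14 lies outside them. The intervals of Dtx3l, Parp12, Parp14 and the first Parp9 entry all lie above that of Parp11.

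Parp1, the main DNA-break sensor of the family, had the highest control level of the members, at 22.5 FPKM. In Nd1 it stood at 21.6 FPKM in the authors' deposited table (ratio 0.960, interval 0.806 to 1.14, q = 0.781, mm9 chromosome 1, 182499106 to 182531385). Parp2, its smaller relative, fell from 10.7 to 8.78 FPKM, a ratio of 0.823 (0.727 to 0.931, q = 0.00751, mm9 chromosome 14, 51427621 to 51440975). The second entry of Parp2 is listed at 0 in both groups and was not tested. The fall of Parp2 does not pass at q under 0.001. The sign for Parp1 depends on the scaling, at -0.059 as deposited and 0.071 with FPKM rescaled to the same total in both groups. Among the 12479 tested loci that average 1 FPKM or more, that rescaling moves the median log2 ratio from -0.067 to 0.064. Under it Parp2 stood at -0.15, beside a standard error of 0.091 as deposited, and whether this fall would pass was not tested.

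**Figure D3:**
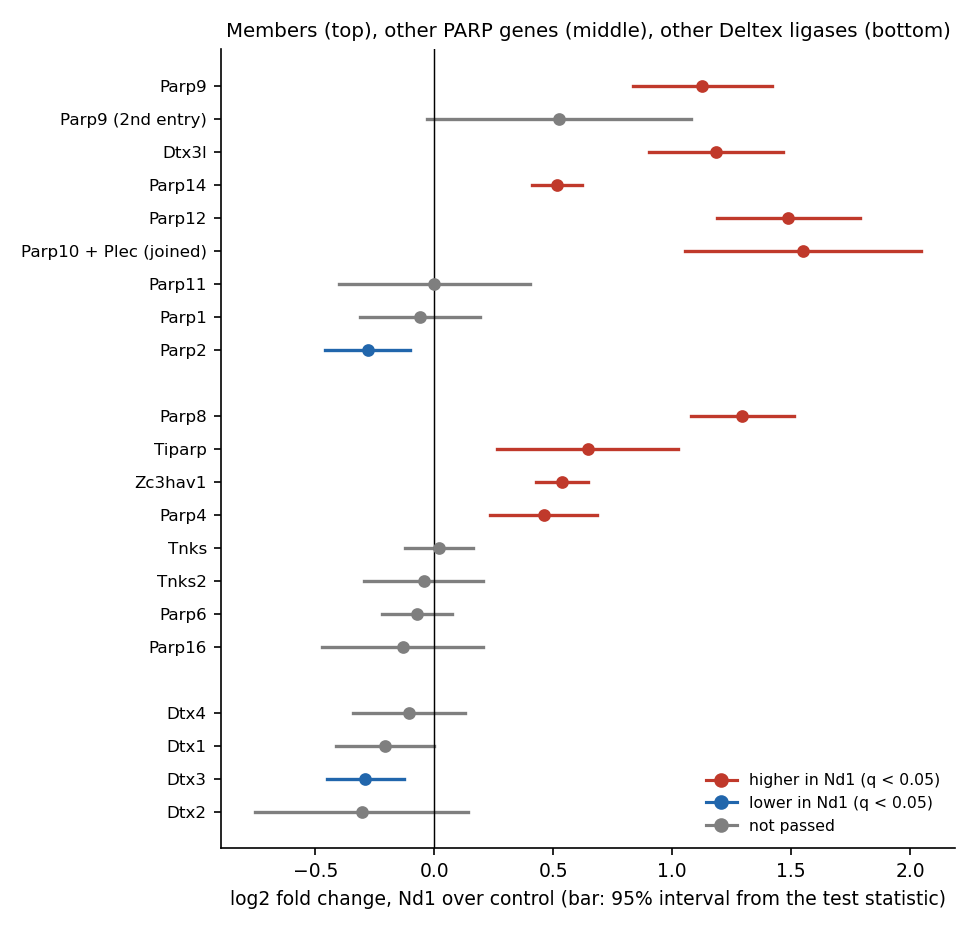
Log2 fold change of Nd1 over control (points) with its 95% interval (bars) for the members, the other tested PARP genes and the other Deltex ligases, coloured by the authors' call. The joined entry of Parp10 and Plec, Parp12, Dtx3l, the first Parp9 entry and Parp8 lie above 1. Parp11 and Parp1 lie at 0 within their intervals, and Parp2 and Dtx3 lie below 0.

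The order of the levels changed between the groups. In control it ran Parp1, Parp14, Parp12, Parp2, Parp9, Dtx3l and Parp11, and in Nd1 it ran Parp12, Parp14, Parp1, Parp9, Dtx3l, Parp2 and Parp11. Parp14 stood at 0.83 of the level of Parp1 in control and at 1.24 times that level in Nd1. The table holds no error for a single level, so it cannot be said which neighbours in these orders differ. Among the tested loci above 0 in both groups, 5.05% had a larger rise than Parp12, 6.76% than Dtx3l, 7.01% than Parp9 and 14.7% than Parp14. All of these members were already present in the control libraries, with 51.5% of tested loci below Dtx3l and 72.2% below Parp14 there.

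**Figure D4:**
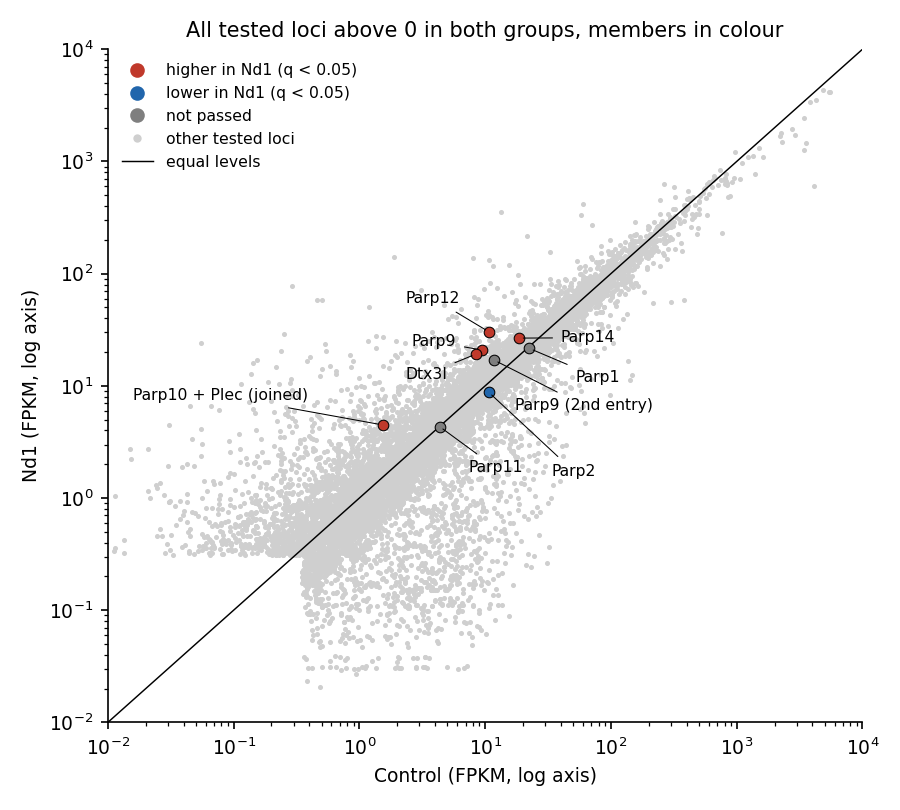
Nd1 against control level (FPKM, both axes logarithmic) for the 14704 tested loci above 0 in both groups (grey), with the member entries coloured by call and the line of equal levels. Parp12, Dtx3l and the first Parp9 entry lie at the upper edge of the main cloud, and Parp11 and Parp1 lie on the line.

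The loci whose pair of values was nearest to each member, by distance on log2(FPKM + 0.1) over the 2 pooled values, were of mixed kinds. Parp12 lay nearest to Ptprn (10.7 to 29.5 FPKM) and Bspry (11.6 to 28.7 FPKM). Parp9 lay nearest to Sdr42e1 and Gbe1, Dtx3l to Tmem22 and Clic6, and Parp14 to Ugdh and Pclo. For Parp11 the nearest was the locus listed as Mir9-2, for Parp1 they were Angel2 and Pdcl, and for Parp2 Daxx and Klhl20. Distances ranged from 0.00924 for Daxx to 0.131 for Bspry. With 2 values per gene, likeness says only that a locus has similar levels.

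Among the 9 PARP genes outside the members, 8 were tested in the authors' deposited table. Of these 4 rose and 0 fell, by Cuffdiff's q or at an unadjusted p under 0.05. Over all tested loci 34.4% were called, 15.1% as higher. The median log2 fold change of the 8 was 0.24. Parp8, a member of little-known function, rose from 3.01 to 7.39 FPKM (log2 fold change 1.295 ± 0.11, standard error, q listed as 0). Zc3hav1, the zinc-finger antiviral protein that binds CpG-rich viral RNA, rose from 21.7 to 31.5 FPKM (0.54 ± 0.056, q listed as 0), and it lies 731.8 kb from Parp12 on the same chromosome. Tiparp, a mono-ADP-ribosyltransferase induced by the aryl hydrocarbon receptor, rose from 5.20 to 8.13 FPKM (0.64 ± 0.19, q = 0.00360). Parp4, a component of vault particles, rose from 4.42 to 6.08 FPKM (0.46 ± 0.11, q = 0.000298). The tankyrases Tnks (82.5 and 83.7 FPKM) and Tnks2 (19.7 and 19.1 FPKM), which build chains and act in Wnt signalling and at telomeres, did not pass, and neither did Parp6 or Parp16. Parp3, a DNA-repair member, was not tested, at 0.20 and 0.29 FPKM.

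Of the other Deltex ligases, 1 of 4 tested was called, and it fell, beside 34.4% called and 19.2% called as lower over all tested loci. Dtx3 fell from 221 to 181 FPKM (log2 fold change -0.29 ± 0.082, standard error, q = 0.00183 in the authors' deposited table). Dtx1 (104.6 and 90.6 FPKM), Dtx2 (3.03 and 2.45 FPKM) and Dtx4 (10.8 and 10.1 FPKM) did not pass. At an unadjusted p under 0.05 there were 2 falls, Dtx3 and Dtx1 (q = 0.117 for Dtx1 in Cuffdiff). The median of the 4 was -0.25, and Dtx3l was the only member of that family called as higher among the 5 tested here. Per length, Dtx3 and Dtx1 were the more abundant ligases of the family in both groups, with Dtx3l at 8.44 and 19.2 FPKM.

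The enzymes that take ADP-ribose off again, and the proteins that read it through macrodomains, gave 1 fall and 0 rises among 11 tested genes, by Cuffdiff's q as at an unadjusted p under 0.05, with a median of -0.028. Macrod1, a mitochondrial ADP-ribose hydrolase, fell from 79.5 to 35.75 FPKM (log2 fold change -1.15 ± 0.14, standard error, q listed as 0 in the authors' deposited table). Parg, the glycohydrolase that degrades the chains, stood at 18.1 and 16.7 FPKM (q = 0.462), and Adprh, which removes single units from arginine, at 40.8 FPKM in both groups (q = 0.992). The share called, 9.09%, was below the 34.4% of all tested loci. The test failed for Rnf146, a ubiquitin ligase that reads ADP-ribose chains, and for H2afy.

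Genes of NAD synthesis and use, the supply of the PARP reaction, gave 1 rise and 6 falls among 15 tested, with a median of -0.18. Nampt, the rate-limiting enzyme of NAD salvage, rose from 10.9 to 19.98 FPKM (log2 fold change 0.87 ± 0.15, standard error, q = 4.82e-08 in the authors' deposited table). Nmnat2, the cytosolic NAD synthase on which axon survival depends, fell from 21.1 to 14.3 FPKM (-0.56 ± 0.13, q = 9.66e-05). Nmnat3, a mitochondrial enzyme of the same family, fell from 1.11 to 0.27 FPKM, and Naprt1, which starts NAD synthesis from nicotinic acid, from 1.55 to 0.68 FPKM. Nadk, the kinase that turns NAD into NADP, fell from 43.5 to 34.8 FPKM. Sarm1, the NAD-degrading enzyme of axon degeneration, stood at 6.98 and 7.14 FPKM and did not pass (q = 0.851), named here after its value was seen. The share called was 46.7%, beside 34.4% of all tested loci.

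The partners of Parp1 and Parp2 in single-strand break and base excision repair gave 1 rise and 1 fall among 11 tested, with a median of -0.018. Aplf, which binds ADP-ribose at breaks, fell from 3.21 to 2.53 FPKM (q = 0.0455 in the authors' deposited table). Xrcc1, the scaffold that Parp1 brings to breaks, stood at 10.8 and 10.6 FPKM (q = 0.949). Hpf1, the cofactor that directs Parp1 and Parp2 to serine and is listed under the older name 2700029M09Rik, stood at 15.6 and 16.1 FPKM (q = 0.857). The share called was 18.2%, beside 34.4% of all tested loci.

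Interferon receptors, their kinases and the STAT and IRF factors gave 7 rises and 1 fall among 14 tested, a share called of 57.1% beside 34.4% of all tested loci, of which 15.1% were higher. Usp18, which dampens the receptor, rose from 1.19 to 50.6 FPKM, Irf9 from 8.11 to 61.4 FPKM and Socs1, an inhibitor of JAK kinases, from 0.29 to 2.03 FPKM in the authors' deposited table. Tyk2, a JAK kinase that associates with the receptors, fell from 9.41 to 6.24 FPKM. The log2 fold change of Irf9, a subunit of the factor that binds interferon response elements, was 2.92, beside 1.18 for Dtx3l and 1.13 for the first Parp9 entry. The list median was 0.70. This list was set with earlier results of these data known, and its direction is no independent evidence.

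**Figure D5:**
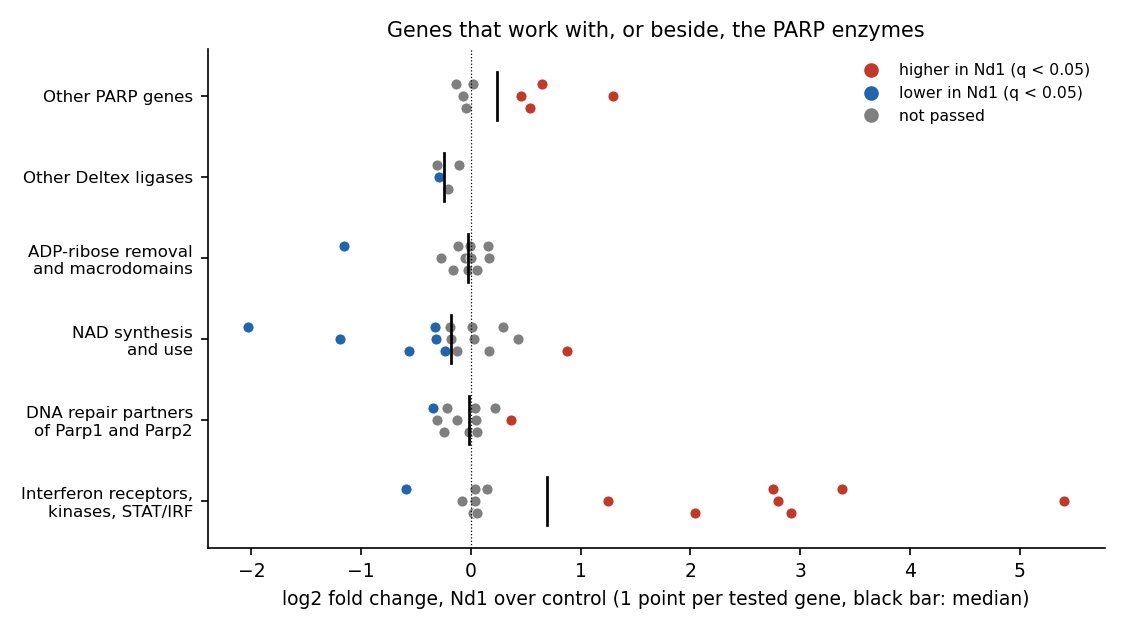
Log2 fold change of Nd1 over control for each tested gene (points, coloured by the authors' call) of 6 gene lists, with the list median as a black bar. The medians of the macrodomain and repair lists lie near 0, at -0.028 and -0.018, and the interferon list reaches 5.41 at Usp18.

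Markers of the labelled cell type were present in both groups, and the groups differed in them. Omp stood at 4087 and 605 FPKM, Cnga2 at 859.5 and 486 FPKM and Adcy3 at 888 and 496 FPKM, and 7 of 7 tested markers of mature olfactory neurons fell in the authors' deposited table, beside 19.2% of all tested loci. The 5 markers of immature neurons all rose, beside 15.1% of all tested loci. Their summed level was 26.2 FPKM in control and 136 FPKM in Nd1. In such bulk libraries fewer cells of a type and less RNA per cell cannot be told apart, and the part of this shift in the rise of Parp9, Dtx3l, Parp12 and Parp14 was not tested. Immune cells can express these genes too, and their part in the rise was not tested. The 9 listed macrophage markers summed to 2.50 FPKM in control and 1.41 FPKM in Nd1, and of these Aif1 (0.238 and 0.465 FPKM, q = 0.350) and Emr1 (0.0704 and 0.104 FPKM, not tested by Cuffdiff) stood higher in Nd1 and the other 7 lower. The sums were 0.84 and 0.47 FPKM for the 10 T and NK cell markers, with Cd3g and Gzmb at 0 in both, and 0.43 and 0.22 FPKM for the 4 B cell markers. The 5 neutrophil markers all fell, beside 19.2% of all tested loci, from a sum of 28.2 to 5.06 FPKM. Sustentacular cell markers summed to 79.1 and 64.2 FPKM and endothelial markers to 2.41 and 3.20 FPKM. The higher endothelial sum in Nd1 comes from Pecam1, which rose (1.49 to 2.68 FPKM). Cldn5 stood lower in Nd1 and did not pass (0.74 and 0.35 FPKM). Tek (0.11 and 0.091 FPKM) and Kdr (0.039 and 0.034 FPKM) also stood lower and Cdh5 slightly higher (0.034 and 0.039 FPKM), all not tested by Cuffdiff.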

How the data were processed

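Polyadenylated RNA of sorted neurons was made into 4 TruSeq libraries, 2 per group, per the labels' protocols. Bowtie, Cuffdiff 1.3.0 and the build mm9 are named in the submitters' processing notes. The sources used here give neither annotation nor filters. For 28168 loci the deposited table lists the FPKM of each group, a Cuffdiff output of the authors. Per the file headers it also lists a log2 fold change, a test statistic (a score), a p-value and a q-value. Values per library are not in it, so depth per library is unknown, no value has a spread between replicates and the planned limma test could not be run. The planned fallback, the authors' q under 0.05, was used. The replicates of a group differed in age, so they came from different mice, and how Cuffdiff used them is not given in the sources used here.

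Starts were raised by 1. The statistic is positive where Nd1 is lower, and in 99.03% of tested loci with p over 1e-10 the p-value is the 2-sided normal p of the statistic within 1%. Standard errors are therefore the log2 fold change over the statistic, without sign, and 95% intervals follow from it. The interval and the Benjamini-Hochberg step were run on data simulated with these same standard errors. That checks the computation only and cannot show whether Cuffdiff's errors are right. A symbol with several entries is given by that of the highest mean FPKM, and older symbols were matched through RefSeq. Named genes are the members, up to 4 called per direction in each list, any that complete a count of 5 or fewer, neighbours within 100 kb and the 2 nearest patterns per member. A few genes that this rule would name are not reported here. Single genes that did not pass were named after their values were seen. Members and lists were chosen with earlier results of these data known. Alternatives were other thresholds, pseudocounts and scalings. Python 3.11.15, pandas 2.3.3, numpy 2.4.6 and scipy 1.17.1 were used.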

Additional observations from a re-analysis of the deposited data

How the results depend on the processing

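The count of 4 interferon-linked members called higher ranged from 3 to 5 over the alternatives. It was 3 when changes of at least 2-fold were required, which leaves out Parp14, and 3 with Parp9 given by its second entry. It was 5 with the joined entry counted as Parp10, and the last 2 alternatives were added after the data had been seen. The fall of Parp2 was lost, with a count of 0, at q under 0.001, under Bonferroni adjustment over all tested loci and when a change of at least 2-fold was required. Counting every entry of a symbol gave 2 rises in place of 1 among the repair partners, through the other entry of Timeless. No called member changed direction under any of the 6 pseudocounts and scalings tried, and no call was tested again under them. Parp14 moved beyond its interval in 1 of them, to 0.65 with FPKM rescaled to the same total over all loci. No paired analysis was possible because the table holds 1 pooled value per group, and for the same reason no replicate could be left out. Depth per library is unknown, so neither counting intervals nor detection limits can be given.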

Other observations

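Of the tested named entries within 100 kb, 1 of 2 near Parp1 and 4 of 7 near Parp2 were called, beside 34.4% of all tested loci. With so few entries, these counts do not set the neighbourhoods apart. Lin9 near Parp1 and Osgep and Rpph1 near Parp2 did not pass. 6330403A02Rik, 85.47 kb from Parp1, rose from 0.11 to 2.74 FPKM in the authors' deposited table (log2 fold change 4.60, q listed as 0). Ttc5, a p53 cofactor 22.43 kb from Parp2, rose from 36.9 to 48.1 FPKM (q = 0.00189), and the odorant receptors Olfr748 and Olfr749 on the same side fell, with log2 fold changes of -4.62 and -4.04. Tep1, a vault and telomerase component 2.76 kb from Parp2, has 2 entries at the same bounds, and as with Parp9 only 1 was called. The entry at 7.07 and 6.88 FPKM did not pass (q = 0.869), and the entry at 3.78 and 6.47 FPKM rose (q = 0.00155).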
